A study of Mus musculus with 11 samples.

Results

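The chromatin of Cd8a, Cd8b1, Cd4 and Zbtb7b, the genes that mark and set the choice between the CD8 and CD4 lineages of T cells, was followed by ATAC-seq in 11 libraries of CD8+ T cells from mouse spleen. The assay lets a transposase insert sequencing adapters where DNA is accessible. Every peak whose nearest RefSeq protein-coding gene span, within 100 kb, belonged to one of these 4 genes was taken from the 11 lists. Merging peaks that shared 1 bp or more gave 22 regions of 111041 in all, 6 for Cd8a, 7 for Cd8b1, 5 for Cd4 and 4 for Zbtb7b. The choice used position and no measured level. Splenocytes and day 9 cells were sorted by a YFP reporter of Tcf7, which encodes TCF-1, a factor of naive and memory-like T cells. The splenocytes were sorted as CD8-positive, so CD8 protein was part of their gate. Of the 8 libraries from day 9 of culture, 3 were YFP-low when sorted at day 3 and YFP-high at day 9 (low-to-high), 2 were YFP-high at both sorts (high-to-high) and 3 were YFP-low at both (low-to-low). The low-to-high and high-to-high libraries together are the 5 YFP-high libraries, and the low-to-low libraries are the 3 YFP-low ones. Effector cells activated outside the animal until day 3, antigen-experienced splenocytes (CD44-positive, CD62L-positive, YFP-positive) and naive splenocytes (CD44-negative, CD62L-positive, YFP-positive) had 1 library each. The sources used here do not give the strain or age of the mice, the antigen that the antigen-experienced cells had met, or the origin of the replicates. Where those are not separate animals or cultures, p-values measure technical spread alone.

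CD8 on most T cells is a pair of an alpha chain, encoded by Cd8a, and a beta chain, encoded by Cd8b1, and serves as the coreceptor for class I MHC. The genes lie side by side, and studies in mice have placed several enhancers that act at different stages around and between them. CD4 is the coreceptor for class II MHC. A silencer in the first intron of Cd4, which RUNX factors bind, serves to repress the gene as mouse T cells take the CD8 lineage. Zbtb7b encodes ThPOK, the zinc finger factor that directs cells to the CD4 lineage, and mouse CD8 T cells repress it through a RUNX-bound silencer upstream of the gene.

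Sequences before annotated start sites are shown because an open region lay at or next to 2 of them. The table of RefSeq starts used here (GRCm38.p6) held 1 window for Cd8a and 2 for Zbtb7b, and windows of Cd8b1 and Cd4 were not used here. The 250 bases before each start are printed in the direction of transcription, for Cd8a chr6:71373177-71373426 (plus strand), for the outer start of Zbtb7b chr3:89393379-89393628 and for its inner start chr3:89387672-89387921 (both minus strand). Capitals mark a match to the RUNX motifs ACCACA or ACCGCA on either strand, searched for separately.
Cd8a start: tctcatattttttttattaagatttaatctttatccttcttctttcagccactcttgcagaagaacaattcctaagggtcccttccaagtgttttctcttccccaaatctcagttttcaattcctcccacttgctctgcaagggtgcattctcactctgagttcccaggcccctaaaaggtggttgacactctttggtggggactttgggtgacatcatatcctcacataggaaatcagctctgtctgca
Zbtb7b outer start: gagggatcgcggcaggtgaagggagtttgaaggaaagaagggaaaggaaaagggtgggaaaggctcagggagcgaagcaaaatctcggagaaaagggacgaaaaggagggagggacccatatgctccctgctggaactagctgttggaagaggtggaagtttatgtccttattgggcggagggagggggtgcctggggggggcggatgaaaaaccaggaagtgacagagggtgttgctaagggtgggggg
Zbtb7b inner start: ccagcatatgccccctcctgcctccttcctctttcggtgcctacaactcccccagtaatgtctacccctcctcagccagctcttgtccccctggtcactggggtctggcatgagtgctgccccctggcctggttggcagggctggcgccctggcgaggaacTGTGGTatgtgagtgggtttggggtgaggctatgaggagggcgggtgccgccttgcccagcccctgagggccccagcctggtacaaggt
The inner Zbtb7b start had 1 match, 89 bases before the start on the opposite strand. The Cd8a window, which runs on to 50 bases after the start, had 1 match in that part, 43 bases after the start, and the outer Zbtb7b window had 0. Of all 32851 such windows, 22.4% hold at least 1 of the motifs, so a match is common. The Cd8a window held the open region at chr6:71373327-71373463, called in high-to-high replicate 2 and naive cells, the libraries with the narrowest peak windows. The Zbtb7b region at chr3:89393633-89393805 lay 5 bp before the outer window, across the end of the gene span, and the inner window was 1005 bp from the nearest region.

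The deposited level is the normalized tag count, the tags in a peak per 10 M tags of the library. Depth ran from 20.8 to 60.0 M tags, and the share of tags in peaks was 9.01 to 10.2% in YFP-high and 10.4 to 12.5% in YFP-low libraries, 9.08% in effector, 15.8% in antigen-experienced and 15.0% in naive cells, so that share cannot be told apart from the YFP state. Differences are therefore given after centring each library on its median, with deposited values beside them. Peak windows were 136 bp wide in high-to-high replicate 2, the deepest library, and 132 bp wide in naive cells, against 173 bp elsewhere, and the part of this width in the differences was not tested. All 8 genes of a T cell list (the CD3 chains, Cd247, Cd2, Cd5, Lck and Zap70) had an open region. Of them, 7 had one in all 11 libraries and Cd3g in 10. The dendritic cell genes Xcr1, Flt3, Zbtb46, Batf3 and Itgax also had one in all 11 libraries, so such presence does not tell cell types apart. In bulk samples, fewer cells with an open site and a less open site per cell cannot be told apart.

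**Figure D1:**
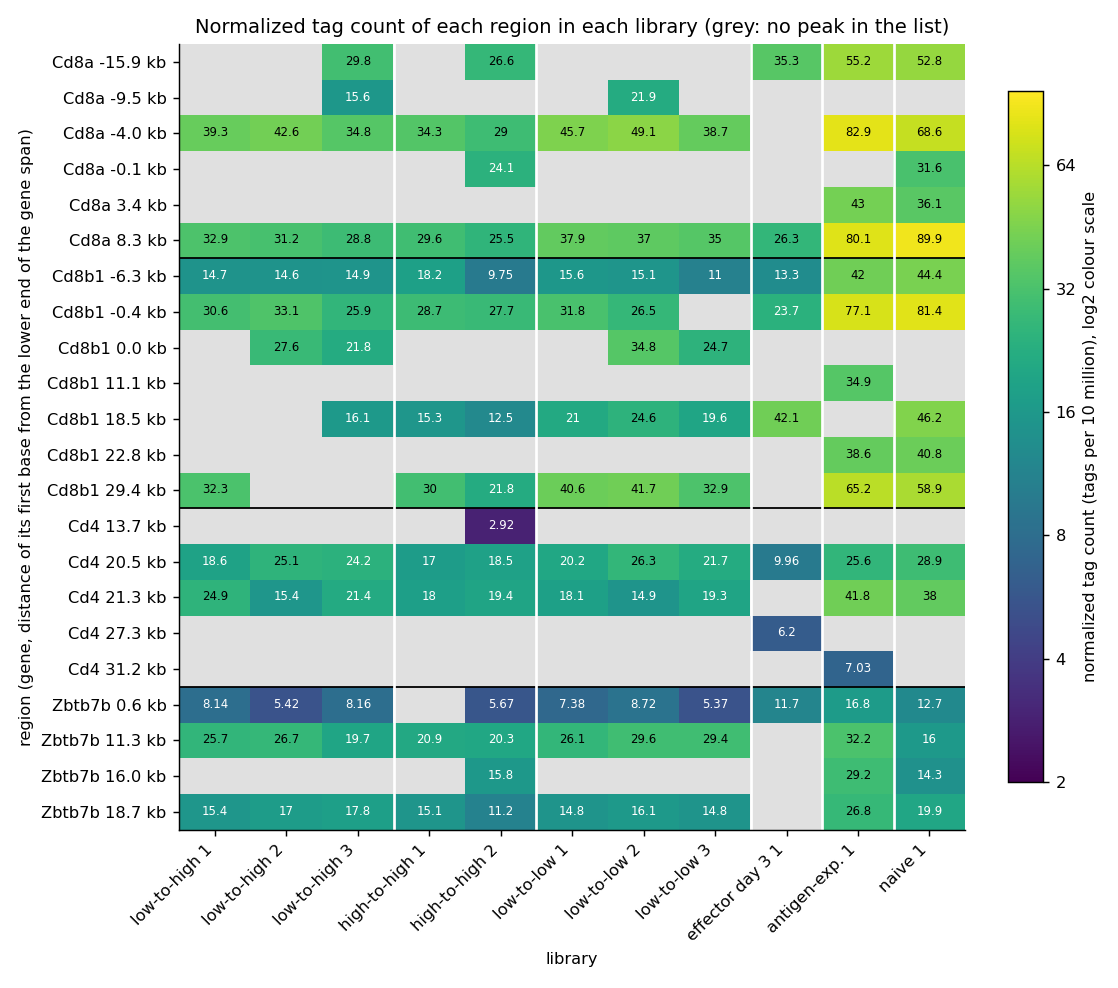
Normalized tag count of the 22 regions (rows) in the 11 libraries (columns). Regions are named by the distance in kb of the first base from the lower coordinate of the gene span, and grey marks a library whose list has no peak there. The Cd8 regions are brightest in the antigen-experienced and naive columns, and the effector column holds 8 of the 22 regions (59.5% of all regions were called there), the antigen-experienced column 16 (45.2%) and the naive column 16 (51.7%).

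Cd8a and Cd8b1, 35.9 kb apart on chromosome 6, shared a cluster of 13 regions over 65.6 kb whose levels were mostly lower in cultured cells than in splenocytes. In effector cells 3 of the 5 regions that could be compared were at least 2-fold lower than in naive cells after centring. Every day 9 library with a peak at these 3 regions, in either YFP state, had a lower deposited level than both splenocyte libraries. The share of all regions with that order on the deposited scale was not computed. After centring, all 8 day 9 libraries lay below naive cells at 43.5% of all comparable regions and below antigen-experienced cells at 37.6%. Such an order is therefore common. Regions are named here by gene and by the distance of their first base from the lower coordinate of its RefSeq span. The region Cd8a 8.3 kb, 2582 bp beyond the gene (chr6:71381753-71382028), held 32.9, 31.2 and 28.8 in low-to-high, 29.6 and 25.5 in high-to-high, 37.9, 37.0 and 35.0 in low-to-low, 26.3 in effector, 80.1 in antigen-experienced and 89.9 in naive cells. Each of the 9 cultured libraries lay below both splenocyte libraries on the deposited scale. The difference of effector from naive cells was -1.17 on the centred log2(normalized tag count + 1) scale and -1.74 on the deposited scale. At Cd8b1 -0.4 kb, 128 bp before the gene that encodes the beta chain (chr6:71322401-71322660), the values were 30.6, 33.1 and 25.9 in low-to-high, 28.7 and 27.7 in high-to-high, 31.8 and 26.5 in low-to-low, 23.7 in effector, 77.1 in antigen-experienced and 81.4 in naive cells. Low-to-low replicate 3 had no peak there but had one of 24.7 in the neighbouring region 0.0 kb, after a gap of 122 bp. The 0.0 kb region also held 27.6 and 21.8 in low-to-high replicates 2 and 3 and 34.8 in low-to-low replicate 2. At Cd8b1 -6.3 kb (chr6:71316470-71316761) the day 9 values ran from 9.75 to 18.2, with 13.3 in effector, 42.0 in antigen-experienced and 44.4 in naive cells. The centred difference of effector from naive cells was -1.17 at -0.4 kb and -1.10 at -6.3 kb. Over all 32333 regions called in both libraries, 9.21% were at least 2-fold lower after centring and the median difference was -0.15. On the deposited scale their median difference was -0.71. Beside these values, the summed level of the 6 B cell markers was 373 in effector and 108 in naive cells, with 4 of 6 shared regions at least 2-fold higher and a median centred difference of 1.28. Effector cells had regions at 3 of these 6 genes (36 regions) and naive cells at 4 (11 regions), so more of the genes had a region in naive cells. Cd79a had no region in any library and Ms4a1 had one in 1 library. The part of B cells in the Cd8 values was not tested.

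Inside the gap between the genes, the regions called in both effector and naive cells (1 library each) showed no 2-fold fall after centring. Cd8b1 18.5 kb (chr6:71341252-71341620) kept 42.1 in effector cells against 46.2 in naive cells, a centred difference of 0.43. At day 9 it had 16.1 in low-to-high replicate 3, 15.3 and 12.5 in high-to-high and 21.0, 24.6 and 19.6 in low-to-low cells, all below the effector value, and it was called in no other low-to-high library and not in antigen-experienced cells. The centres of its peaks were spread over 196 bp, with 282 bp from the first base of the region in effector and 163 bp in naive cells, so the peaks need not mark the same site. Its peak stood 14.2-fold over the surrounding 10 kb in effector cells, the authors' own value for a peak, against 4.16- to 4.75-fold at day 9 and 4.76-fold in naive cells. Cd8a -15.9 kb (chr6:71357572-71357813) held 29.8 in low-to-high replicate 3, 26.6 in high-to-high replicate 2, 35.3 in effector, 55.2 in antigen-experienced and 52.8 in naive cells. Its centred difference of effector from naive cells was -0.0031, against -0.57 on the deposited scale, where the median of all shared regions was -0.71.

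Other Cd8 regions were missing from the effector list. Cd8a -4.0 kb, in the gap before the gene that encodes the alpha chain (chr6:71369477-71369702), held 39.3, 42.6 and 34.8 in low-to-high, 34.3 and 29.0 in high-to-high, 45.7, 49.1 and 38.7 in low-to-low, 82.9 in antigen-experienced and 68.6 in naive cells, and had no effector peak. Cd8b1 29.4 kb (chr6:71352197-71352465) had 32.3 in low-to-high replicate 1, 30.0 and 21.8 in high-to-high, 40.6, 41.7 and 32.9 in low-to-low, 65.2 in antigen-experienced and 58.9 in naive cells. On the deposited scale both splenocyte libraries were above every day 9 library with a peak at these sites. The share of all regions with that order was not computed, and after centring all 8 day 9 libraries lay below naive cells at 43.5% of comparable regions. Cd8b1 22.8 kb (38.6 in antigen-experienced and 40.8 in naive cells) and Cd8a 3.4 kb, inside the gene (43.0 in antigen-experienced and 36.1 in naive cells), were called in no cultured library. The remaining regions were Cd8a -0.1 kb (24.1 in high-to-high replicate 2 and 31.6 in naive cells), Cd8a -9.5 kb (15.6 in low-to-high replicate 3 and 21.9 in low-to-low replicate 2) and Cd8b1 11.1 kb (34.9 in antigen-experienced cells alone). Of the 8 Cd8 regions called in both splenocyte libraries, 4 were not called in effector cells, against 33.6% of all regions, and 2 were called in no day 9 library, against 5.32%.

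**Figure D2:**
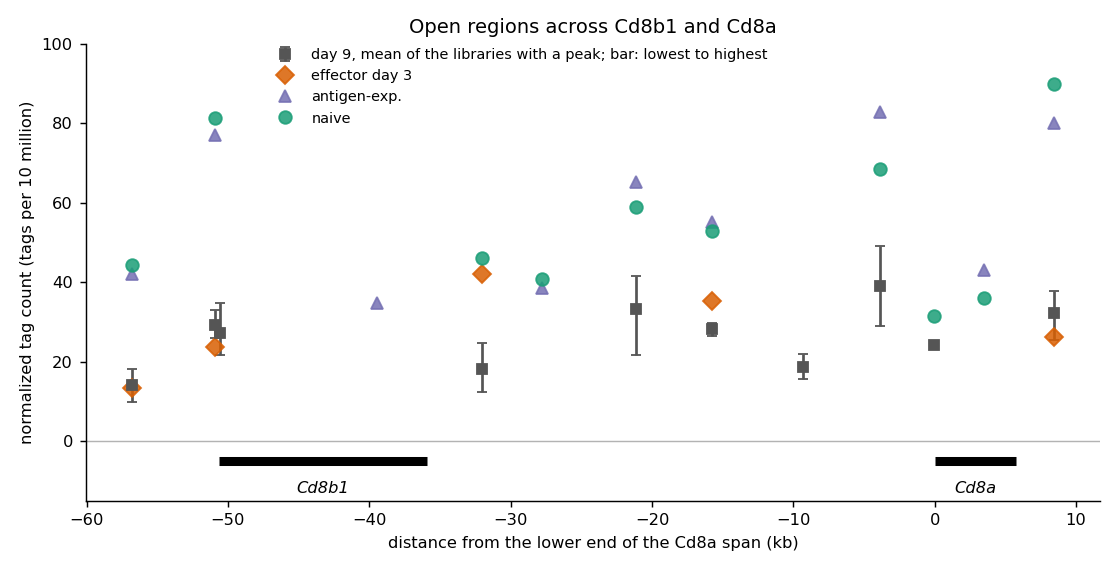
Normalized tag count (vertical axis) of the 13 Cd8 regions by their distance in kb from the lower end of the Cd8a span, with the gene spans as black bars. Squares are the mean of the day 9 libraries with a peak, with bars from lowest to highest, and the other symbols are single libraries. Effector cells sit with the day 9 libraries at the outer regions (26.3 against 89.9 in naive cells at 8.3 kb beyond the lower end of Cd8a) and near naive cells 32 kb before it (42.1 against 46.2).

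Absence from a list has to be read with the caller's local filter, since it kept only peaks at least 4-fold over the surrounding 10 kb. Over the 76 peaks of the Cd8 cluster the median fold over local background was 6.98, and 43.4% were under 6-fold. Among all 586587 peaks the median was 8.40 and 26.1% were under 6-fold, and among the 355881 peaks with normalized tag counts in the range of the Cd8 ones the median was 9.87. At Cd8a -15.9 kb, called in 5 libraries, the fold was 4 to 5.77 while the level was 26.6 or more, against lowest values of 2.25 to 4.32 in the lists. A site of that level can thus be missing from a list without being closed, and whether the missing libraries had signal there was not tested. Cd8a -4.0 kb, missing in effector cells alone, stood higher, at 7.46- to 12.5-fold in its 10 libraries.

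**Figure D3:**
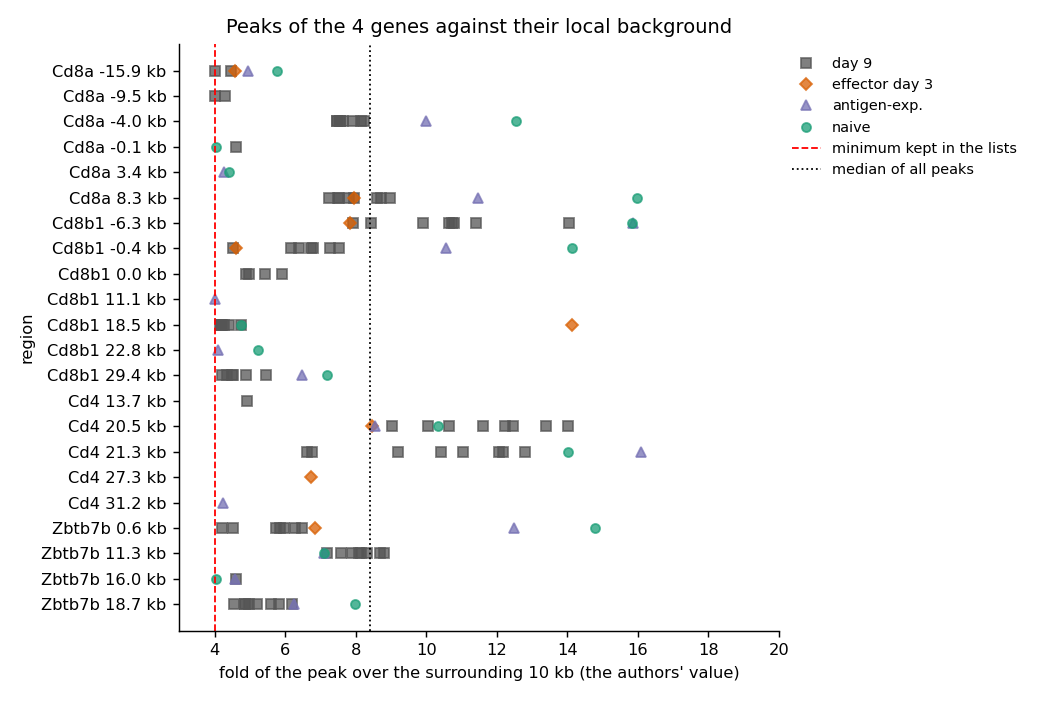
Fold of each peak over its surrounding 10 kb (horizontal axis, the authors' value) for the 22 regions, with 1 symbol per peak. The dashed line is the caller's minimum of 4 and the dotted line the median of all peaks, 8.40. Most Cd8 regions missing from some libraries lie close to the minimum, for example 4 to 5.77 at Cd8a -15.9 kb, and the effector peak at Cd8b1 18.5 kb stands apart at 14.2.

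Antigen-experienced cells were within 2-fold of naive cells at every Cd8 region they shared, as they were at most regions of the whole series. The 8 shared Cd8 regions had a median centred difference of -0.22, with a range of -0.38 to 0.06, and 0 of them were 2-fold higher or lower, against 3.3% (higher) and 1.27% (lower) of the 44068 regions called in both. The median of all those regions was -0.05. Effector cells were set against antigen-experienced cells at 6 regions of the 4 genes, of which 0 were at least 2-fold lower (6.83% of all) and 0 higher (10.1%) after centring, while 4 of the 6 were at least 2-fold lower on the deposited scale, where 45.7% of all regions were. The Cd8 values of that comparison were -0.87 at Cd8b1 -0.4 kb, -0.80 at Cd8b1 -6.3 kb, -0.78 at Cd8a 8.3 kb and 0.16 at Cd8a -15.9 kb.

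The day 9 libraries, after centring, all lay below the naive library at 4 of the 7 regions that could be compared (43.5% of all regions) and all above it at 1 (27.4%). The 4 were Cd8b1 -6.3 kb (day 9 mean minus naive -1.33), Cd8a 8.3 kb (-1.20), Cd4 21.3 kb (-0.72) and Cd8a -4.0 kb (-0.55). Against antigen-experienced cells they lay below at the same 4 (37.6% of all), with differences of -1.02, -0.80, -0.63 and -0.59, and above at 1, Cd4 20.5 kb (26.6%). Against effector cells, of 3 regions, 0 day 9 ranges lay wholly below (24.8% of all) and 1 lay wholly above, again Cd4 20.5 kb (30.1%). The share of all regions is high throughout, so a position outside the day 9 range is common.

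Cd4 carried 2 regions that nearly every library shared, close together inside the gene. Cd4 20.5 kb (chr6:124885208-124885461) was called in all 11 libraries, with 18.6, 25.1 and 24.2 in low-to-high, 17 and 18.5 in high-to-high, 20.2, 26.3 and 21.7 in low-to-low, 9.96 in effector, 25.6 in antigen-experienced and 28.9 in naive cells. Effector cells had the lowest value, and the day 9 libraries overlapped the antigen-experienced one on the deposited scale. The difference of effector from naive cells was -0.88. Cd4 21.3 kb (chr6:124885948-124886273), 1974 bp from the upper coordinate of the span, held 24.9, 15.4 and 21.4 in low-to-high, 18.0 and 19.4 in high-to-high, 18.1, 14.9 and 19.3 in low-to-low, 41.8 in antigen-experienced and 38.0 in naive cells. Effector cells had no peak there. Both splenocyte libraries were above all day 9 libraries, also after centring, and the centres of the peaks were spread over 165 bp. In the 11 lists no peak lay at the upper end of the span itself, where the gene starts in mouse. The RefSeq table gives spans and no exons, so overlap with the known silencer in the first intron was not analysed here. Each of the other 3 Cd4 regions was called in 1 library: 13.7 kb in high-to-high replicate 2 (2.92), 27.3 kb in effector cells (6.20) and 31.2 kb in antigen-experienced cells (7.03). The last of these lay 7680 bp beyond Cd4 in the 16.1 kb gap before Lag3, an inhibitory receptor gene, and distance does not show which gene a region serves.

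Zbtb7b had all 4 of its regions higher in antigen-experienced than in naive cells, by 0.17 to 0.77 after centring, where 44.9% of all shared regions were higher. They were higher on the deposited scale too, as were 68.6% of all. Zbtb7b 11.3 kb, inside the gene (chr3:89388926-89389188), held 25.7, 26.7 and 19.7 in low-to-high, 20.9 and 20.3 in high-to-high, 26.1, 29.6 and 29.4 in low-to-low, 32.2 in antigen-experienced and 16 in naive cells. All 8 day 9 libraries lay above the naive value, after centring too. Zbtb7b 16.0 kb, at the outer end of the span (chr3:89393633-89393805), held 15.8 in high-to-high replicate 2, 29.2 in antigen-experienced and 14.3 in naive cells. The centred differences of antigen-experienced from naive cells were 0.76 and 0.77 at these regions, short of 2-fold, and 0.97 and 0.98 on the deposited scale. At 18.7 kb (chr3:89396374-89396790), 2701 bp beyond the outer end of the gene, the values were 15.4, 17 and 17.8 in low-to-high, 15.1 and 11.2 in high-to-high, 14.8, 16.1 and 14.8 in low-to-low, 26.8 in antigen-experienced and 19.9 in naive cells, with peak centres spread over 244 bp. At 0.6 kb (chr3:89378276-89378595), near the other end of the span, values were low, at 5.37 to 8.72 in the 7 day 9 libraries with a peak, 11.7 in effector, 16.8 in antigen-experienced and 12.7 in naive cells. This was the sole Zbtb7b region of the effector list, and 3 of the 4 called in both splenocyte libraries were not called in effector cells, against 33.6% of all regions. Each of these differences rests on 1 library per side and has no replicate check. Beside them, the genes taken as marks of CD4 and regulatory T cells (5, of which Ctla4 and Il2ra are also induced in activated CD8 T cells) had a median centred difference of -0.30 over 30 regions between antigen-experienced and naive cells, and the summed level of 6 B cell markers was 237 in antigen-experienced and 108 in naive cells. The part of other cells in these values was not tested.

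**Figure D4:**
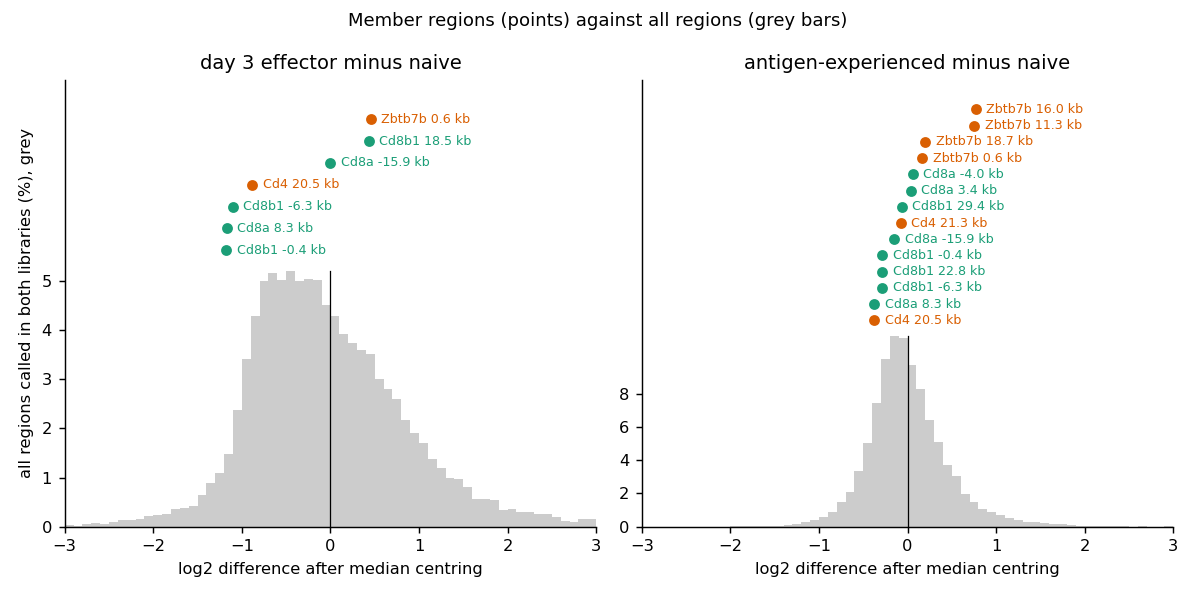
Centred log2 difference (horizontal axis) of the effector library (left) and the antigen-experienced library (right) from the naive library, with all regions called in both as grey bars (percent per bin) and the regions of the 4 genes as points (green for Cd8, orange for Cd4 and Zbtb7b) spaced upwards for legibility. On the left 3 Cd8 points lie below -1, and on the right the 4 Zbtb7b points lie above 0, at 0.17 to 0.77.

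Among the day 9 libraries the 4 genes showed no difference that passed the test. Limma (adjusted p under 0.05 over 34383 regions called in all 8 libraries) called 0 of the 7 testable member regions for YFP-high against YFP-low cells, where it called 0.332% of all regions. It called 0 of 7 for high-to-high against low-to-low (0.596% of all), 0 for low-to-high against low-to-low (0.032%) and 0 for low-to-high against high-to-high cells (0%). An unadjusted p under 0.05 was reached by 1 of the 7 in each of the first 3 comparisons, where 8.07%, 9.92% and 5.56% of all regions reached it in that order, and by 0 in the last (5.09%). That region was Cd4 21.3 kb, with a mean of 19.8 ± 3.58 over the YFP-high libraries (SD, n = 5) and 17.4 ± 2.27 over the YFP-low ones (SD, n = 3). Its log2 fold change was 0.38 ± 0.15 (SE), with a limma adjusted p of 0.415. The log2 fold change was 0.20 without low-to-low replicate 2, 0.17 without centring and -0.097 with the share of tags in peaks in the model. It was larger in other fits, at 0.41 with the replicate number as a block. Without low-to-low replicate 3 it was 0.49 and without low-to-high replicate 2 it was 0.50. The region was not called in any of these fits. Its 5 YFP-high and 3 YFP-low values overlapped. The other 6 log2 fold changes for YFP-high against YFP-low ran from -0.10 to 0.26, with standard errors of 0.10 to 0.16. Over all 28 values of the 4 comparisons the range was -0.19 to 0.39, and leaving out each library in turn widened it to -0.41 to 0.67, with 0 regions called. Both of these ends came from Cd8b1 -6.3 kb without high-to-high replicate 2, where high-to-high against low-to-low was 0.67 (limma adjusted p = 0.221), against 0.25 with all libraries and -0.16 without high-to-high replicate 1. The lowest limma adjusted p was 0.415 for YFP-high against YFP-low, 0.486 for high-to-high against low-to-low, 0.844 for low-to-high against low-to-low and 0.974 for low-to-high against high-to-high cells. A p that misses the threshold does not show that the groups are alike, and the precision of the comparison is given by these standard errors.

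On the deposited scale, where the typical region was 0.22 lower in YFP-high libraries, Cd8a 8.3 kb averaged 29.6 ± 2.78 over the YFP-high libraries (SD, n = 5) and 36.6 ± 1.48 over the YFP-low ones (SD, n = 3) without overlap. It was the 1 of 7 regions with all YFP-high values below all YFP-low values, as were 18.2% of all regions, and 0 of 7 had them all above (0.372%). After centring 0 of 7 lay wholly below (2.48% of all) or above (3%), and the log2 fold change of Cd8a 8.3 kb was -0.08 ± 0.10 (SE). Cd8a -4.0 kb held 31.7 ± 3.75 in high-to-high (SD, n = 2) and 44.5 ± 5.30 in low-to-low libraries (SD, n = 3). It was called without centring (log2 fold change -0.48, limma adjusted p = 0.0228), where the typical region was 0.30 lower in high-to-high libraries, and not with it (-0.19, adjusted p = 0.667).

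**Figure D5:**
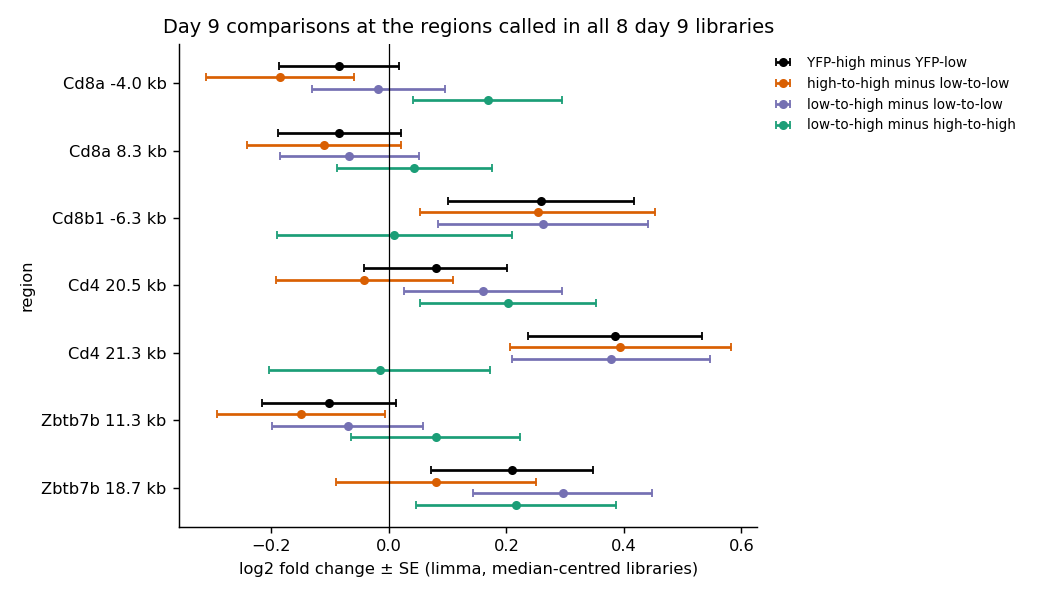
Log2 fold change with standard error (horizontal axis) for the 7 regions called in all 8 day 9 libraries, in 4 comparisons by colour. All 28 points lie between -0.19 and 0.39, and the highest are those of Cd4 21.3 kb against low-to-low cells.

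Summed over all its regions, Cd8a had 85 ± 20.8 in low-to-high (SD, n = 3), 84.6 ± 29.2 in high-to-high (n = 2), 88.4 ± 17.7 in low-to-low (n = 3), 61.6 in effector, 261 in antigen-experienced and 279 in naive cells. These sums move with how many peaks were called, 2 to 4 at day 9, 2 in effector, 4 in antigen-experienced and 5 in naive cells. Per called region the mean was 31.7 ± 4.88 in YFP-high (SD, n = 5), 38.2 ± 3.13 in low-to-low (n = 3), 30.8 in effector, 65.3 in antigen-experienced and 55.8 in naive cells. For Cd8b1 the sums were 77.2 ± 1.73 in low-to-high, 82.0 ± 14.5 in high-to-high, 113 ± 27.5 in low-to-low, 79.1 in effector, 258 in antigen-experienced and 272 in naive cells, from 3 to 5 regions per library. Cd4 had 43.2 ± 2.56 in low-to-high, 37.9 ± 4.12 in high-to-high, 40.2 ± 1.62 in low-to-low, 16.2 in effector, 74.4 in antigen-experienced and 66.9 in naive cells. Zbtb7b had 48.0 ± 2.03 in low-to-high, 44.5 ± 12 in high-to-high, 50.8 ± 3.24 in low-to-low, 11.7 in effector, 105 in antigen-experienced and 62.9 in naive cells. For every gene but Cd8b1, effector cells were lowest, the day 9 groups came next with ranges that overlapped each other, and the splenocytes were highest. For Cd8b1 the effector sum lay within the day 9 range. These sums are not centred, and the share of all genes with the order of Cd8a, Cd4 and Zbtb7b was not computed. The summed T cell list also had effector cells lowest (697) and the splenocytes highest (2090 in antigen-experienced and 1980 in naive cells). So did the pathway, CD4 and regulatory, and myeloid lists given below, while the B cell, dendritic cell and natural killer lists did not.

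The exact permutation test (two-sided, 56 arrangements, smallest possible p 0.0179) on the centred log2 sums gave, for YFP-high against YFP-low, a difference of 0.25 for Cd4 (p = 0.0357, 0.143 adjusted over the 4 genes). For Cd8b1 the difference was -0.27 (exact permutation p = 0.125, adjusted 0.250), for Cd8a 0.14 and for Zbtb7b 0.09 (both adjusted p = 0.518). None passed.

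The genes whose summed profile over the 11 libraries was nearest to a member, by the root mean square difference of log2 values centred per library and per gene among 12090 genes, were Fbxo15, Galnt2 and Hesx1 for Cd8a (0.20 each), Smarce1, Adamts14 and Ly6e for Cd8b1 (0.19 to 0.20) and Wdr45b, Mterf1a and Relt for Cd4 (0.11 to 0.12). For Zbtb7b, which has no region in all 11 libraries and was compared with 12091 genes, they were Tbc1d22b (0.15), Tyrobp (0.16) and Ssc5d (0.18). The Cd8 partners were at 0.33 from each other, where Cd8b1 ranked 233rd among the genes nearest to Cd8a (median of all genes 0.53) and Cd8a ranked 880th among those nearest to Cd8b1 (median 0.47). Zbtb7b and Cd4 were 0.25 apart, with Cd4 ranked 77th.

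Of 24 further genes of the pathway, which act on the Cd4 and Cd8 loci or on the lineage choice (among them Runx1, Runx3, Cbfb, Gata3, Tox, Patz1, Bcl11b and Chd4), 117 regions were tested at day 9 and 0 were higher or lower in any of the 4 comparisons by limma, with medians of -0.04 to 0.00 (log2). An unadjusted p under 0.05 was reached by 15 of the 117 for YFP-high against YFP-low and for high-to-high against low-to-low, 9 for low-to-high against low-to-low and 5 for low-to-high against high-to-high cells, beside 8.07%, 9.92%, 5.56% and 5.09% of all regions in the order of these 4 comparisons. In effector against naive cells 23 of their 96 shared regions were at least 2-fold lower and 12 at least 2-fold higher, against 9.21% and 11.6% of all regions. Their median difference was -0.47. Of the lists of other cells, that of CD4 and regulatory T cells had 1 of 20 tested regions called in YFP-high against YFP-low cells, near Cd40lg (log2 fold change 0.98 ± 0.16, limma adjusted p = 0.00158), beside the values of Cd4 21.3 kb above. High-to-high against low-to-low cells had 2, near Cd40lg and Ikzf2, low-to-high against low-to-low cells had 1, near Cd40lg, and low-to-high against high-to-high cells had 0. The summed levels of that list were 616 to 670 in YFP-high and 637 to 717 in YFP-low libraries, so they overlapped. On this deposited scale the typical region is lower in YFP-high libraries, and 18.2% of all regions had every YFP-high value below every YFP-low value. The sums of the B cell list (130 to 159 in YFP-high, 179 to 241 in YFP-low) and of the natural killer list (322 to 367 in YFP-high, 390 to 450 in YFP-low) did not overlap. Nor did those of the 24 pathway genes (3628 to 4137 in YFP-high, 4270 to 4870 in YFP-low). The sums of the T cell, dendritic cell and myeloid lists overlapped. The share of all genes without overlap was not computed. The part of other cells in the values of the 4 genes was not tested. The B cell, dendritic cell, myeloid and natural killer lists had 0 called regions in any of the 4 comparisons by limma, and 0 to 3 per list and comparison at an unadjusted p under 0.05. Cd79a, which encodes a chain of the B cell receptor complex, and Csf1r, the receptor of macrophage colony-stimulating factor, had no region in any library, and Foxp3, which defines regulatory T cells, had one in 6 libraries, at most 14.2.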

How the data were processed

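The 11 deposited files are peak lists, 1 per library. Per the file headers, the authors called peaks with HOMER findPeaks on each library alone, with a limit of 0.001 on the false discovery rate, 4-fold or more over 10 kb around the peak and a local Poisson p of at most 1e-04. Per the submitters' processing notes, the tools were Bowtie2, HOMER 4.10 and DESeq2 and the build was mm10. The normalized tag count is a signal per 10 M tags, per the file headers. The deposited fold (ratio) over local background, focus ratio (a fraction), peak score and local p-value are the caller's own. Of these the fold alone is reported.

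Peaks on autosomes and X (at most 0.104% of a list was left out) were merged at 1 bp overlap, and a region took its strongest peak in each library. Spans came from the RefSeq table of GRCm38.p6, which holds all 4 genes. Values were taken as log2(normalized tag count + 1) and centred on each library's median. Day 9 comparisons used limma 3.58.1 in R 4.3.3 (trended eBayes) with every day 9 library required to have a peak (34383 regions), and Benjamini-Hochberg adjustment over all of them. The fit was also run on simulated data with the spread of the real libraries. The outcome is not given here, so no result rests on it. Fold changes on this scale understate changes of low values. Of the 22 member regions 7 passed this filter. Single libraries were compared without a test, and 2-fold after centring was the size used for counts. Same-numbered low-to-high and low-to-low libraries deviated together (correlations of 0.298, 0.136 and 0.161), high-to-high ones did not (-0.0407 to -0.0012), and the fit with the number as a block changed no call of a member region. It called 55 regions in all for low-to-high against low-to-low cells, against 11 without it.

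The lowest peak in each file had 8.00 to 14.0 tags, and no counting intervals are given. Regions named by rule were those called in all 8 day 9 or all 11 libraries, those called throughout 1 day 9 group and nowhere in another, and those called at 20 or more in both splenocyte libraries and not in effector cells or the reverse. The rest were named after their values were seen. Members and gene lists were chosen with earlier results of these data known. Likeness took genes with a region called in all 11 libraries. Python 3.11.15, numpy 2.4.6 and pandas 2.3.3 were used. Only start sequences of Cd8a and Zbtb7b were used here.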

Additional observations from a re-analysis of the deposited data

How the results depend on the processing

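Over the alternatives (no centring, cyclic loess, pseudocount 5, regions called in at least 2 libraries of each group, peaks of 10 or more, merging at 50 bp, summed peaks, a covariate for the tags in peaks, each library left out, and the replicate block), limma called 0 member regions in every day 9 comparison except 1, high-to-high against low-to-low without centring, where it called 1 (Cd8a -4.0 kb). With the replicate block 0 were called in each of the 4 comparisons. Called regions over the whole table ran from 0 to 2022 for YFP-high against YFP-low and from 0 to 7410 for high-to-high against low-to-low (7410 without centring, 205 as reported). For YFP-high against YFP-low, the covariate turned Cd8b1 -6.3 kb to -0.015 and Cd4 21.3 kb to -0.097, and the deposited scale turned Cd4 20.5 kb to -0.14 and Zbtb7b 18.7 kb to -0.0087, none of them called. The deposited scale turned the summed difference of Cd8a to -0.074 and that of Zbtb7b to -0.13, and sums within 10 kb turned that of Cd8a to -0.031. Without a change of sign, the deposited scale brought Cd4 from 0.25 to 0.027 and Cd8b1 from -0.27 to -0.49. Sums within 10 kb brought Cd8b1 to -0.032 and left Cd4 at 0.25. The cause of these shifts was not tested. With peaks of 10 or more, 1 member region was called in all 11 libraries, against 3. Without centring, 4 regions were at least 2-fold lower in effector than in antigen-experienced cells, against 0 with it, as were 45.7% of all regions on that scale, and 0 were below all 8 day 9 libraries in antigen-experienced cells, against 1. Leaving out each library in turn, the summed differences for YFP-high against YFP-low ran from 0.04 to 0.22 for Cd8a, -0.41 to -0.17 for Cd8b1, 0.19 to 0.29 for Cd4 and 0.02 to 0.16 for Zbtb7b. The local filter limits what absence shows, as given for the Cd8 cluster.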
